A study of Mus musculus with 18 samples.

Results

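Meiotic double-strand break hotspots were examined whose DNA breaks fell almost wholly on the chromosome from which the PRDM9 allele itself came. They were selected on their B6 share of DMC1 reads in the infertile F1 hybrid male, which carries 1 PWD and 1 C57BL/6 (B6) copy of each autosome and 1 PWD and 1 B6 allele of Prdm9. A hotspot was a member when its bin was not marked by the authors as overlapping H3K4me3 that is probably independent of PRDM9, and when 1 of 2 conditions held. The PWD own-chromosome hotspots had a B6 share of DMC1 reads below 0.1 and a centre within 1000 bp in the PWD/PWD map but not in the B6/B6 map. The B6 own-chromosome hotspots had a B6 share above 0.9 and a centre within 1000 bp in the B6/B6 map but not in the PWD/PWD map. There were 842 of the first kind and 540 of the second, 1382 of 23554 autosomal hotspots of the infertile map (5.87%, Wilson 95% interval 5.57 to 6.17). These members held 3.83% of the map's summed DMC1 heat, a relative DMC1 signal of the authors whose definition is not given in the sources used here.

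PRDM9 is a zinc-finger protein of meiotic germ cells that binds DNA motifs and trimethylates histone H3 at lysine 4 (H3K4me3) on nearby nucleosomes. Breaks are then made by SPO11, and the strand-exchange protein DMC1 coats the single-stranded DNA at their ends, so DMC1 ChIP-seq maps the breaks. Different Prdm9 alleles bind different motifs. A strain's own motifs can be lost over generations by gene conversion from the unbroken homologue, and hybrid hotspots are therefore often known to be used on the chromosome that did not evolve with the allele. The members described here are used the other way round.

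The infertile F1 and the rescue F1 were both (PWDxB6)F1 males, the first with PRDM9 genotype PWD/B6 and the second with PWD/Humanized, where the Humanized (Hum) allele is a humanized copy of Prdm9 made on B6. The reciprocal F1 was the (B6xPWD)F1 with PWD/B6, called semi-fertile in its file, and the Hum/PWD F1 was the (B6xPWD)F1 with Humanized/PWD. The other hybrid was a (B6xCAST)F1 with the B6 and CAST alleles. Inbred controls were the PWD strain (PWD/PWD) and B6 males with B6/B6, B6/Hum or Hum/Hum. All libraries used here came from whole adult testis, which holds somatic cells beside germ cells, and DMC1 came from males aged about 10 weeks. The B6/B6 DMC1 map re-used another submitter's library, whose males have no stated age. Each DMC1 map was 1 library, so values of different maps are set side by side without a test, and intervals on shares of hotspots cover counting error only. H3K4me3 was counted in 1000 bp bins on hotspot centres, with 2 biological replicates and 1 input library for the infertile, reciprocal and rescue F1. The B6/B6 H3K4me3 table came from 1 biological replicate split into pseudoreplicates, with the input of Hum/Hum males. The autosomal bins held 5302534 and 5284422 ChIP fragments for the infertile F1, 1312114 and 1243717 for the reciprocal and 979748 and 1097033 for the rescue F1, sums that include the marked bins.

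For the 4 hottest members of each kind, 60 bases of the mouse reference (RefSeq, GRCm38, which is mm10) are shown. Capitals mark the best match to the allele's motif within 150 bp of the centre, scored with a matrix of 20 positions learned from the 3000 hottest homozygous hotspots that had no infertile hotspot within 1000 bp. The most frequent bases of the PWD motif were NAAAGNCCAAGNCANNNNNN and of the B6 motif NANNNGGNAGNANCANCTNN, with N where no single base made up at least 50% of the position. The reference is a B6 genome, so for PWD own-chromosome hotspots it is the sequence of the chromosome with few breaks. The 4 PWD own-chromosome sites lie 11370 bp from Hyal6, a hyaluronidase gene (chr6:24721893-24721952, minus strand), 34575 bp from Magef1 (chr16:21367814-21367873, minus), in an intron of Ktn1, the gene of the kinesin receptor kinectin (chr14:47652599-47652658, minus), and in an intron of the RNA gene Otx2os1 (chr14:48818327-48818386, plus).
Hyal6: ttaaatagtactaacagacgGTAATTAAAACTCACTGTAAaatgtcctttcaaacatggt
Magef1: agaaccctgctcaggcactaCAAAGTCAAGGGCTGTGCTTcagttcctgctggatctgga
Ktn1: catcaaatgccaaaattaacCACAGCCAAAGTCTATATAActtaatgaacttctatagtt
Otx2os1: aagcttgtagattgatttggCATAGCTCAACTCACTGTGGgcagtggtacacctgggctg

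The 4 B6 own-chromosome sites lie in an intron of Rai14, an actin-binding protein gene (chr15:10598931-10598990, minus), 51285 bp from Gm37093 (chr14:99696231-99696290, minus), in an intron of Gm49007 (chr14:96954036-96954095, minus) and 16653 bp from Aggf1, an angiogenic factor gene (chr13:95392083-95392142, minus). Here the reference is the chromosome that was broken.
Rai14: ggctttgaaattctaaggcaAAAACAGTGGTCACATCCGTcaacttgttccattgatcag
Gm37093: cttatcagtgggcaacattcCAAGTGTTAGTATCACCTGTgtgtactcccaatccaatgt
Gm49007: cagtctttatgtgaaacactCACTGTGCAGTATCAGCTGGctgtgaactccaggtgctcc
Aggf1: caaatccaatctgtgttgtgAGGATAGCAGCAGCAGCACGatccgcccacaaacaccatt

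The matches at Magef1, Ktn1, Gm37093, Gm49007 and Aggf1 passed a score that 5% of flanking windows pass, and those at Hyal6, Otx2os1 and Rai14 did not. Magef1 only just passed, at 10.82 with a limit of 10.75. The windows at Hyal6 and Magef1 also held a match to the B6 motif, at 16.7 and 14.0 with a limit of 10.3. Hyal6 and Rai14 were the hottest member of their kind, and both lay far from the rest in infertile against homozygous heat. At Hyal6 the PWD/PWD heat was only 13, at a centre 837 bp away, against 378.8 in the infertile map, and the authors' allele column assigns the site to B6. No hotspot was found at Hyal6 in the rescue or Hum/PWD maps, and the B6 by CAST map had heat 221 there. At Magef1 the PWD/PWD heat was 109.5, at a centre 8 bp away, but the rescue map had no hotspot and the Hum/PWD map heat 12. At Rai14 the B6/B6 heat was 14.9, at a centre 398 bp away, against 356.4 in the infertile map. No hotspot was found at Rai14 in the B6/Hum or B6 by CAST maps, both with a B6 allele. The authors' H3K4me3 enrichment over local background was 0.00338 at that B6/B6 centre, against 3.25 at Rai14 in the infertile table.

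How large a class this is was counted first. Of infertile hotspots that matched the PWD/PWD map alone, were unmarked and had a B6 share, 842 of 7389 (11.4%, 10.7 to 12.1) were PWD own-chromosome. Of those that matched the B6/B6 map alone, 540 of 5534 (9.76%, 9.0 to 10.6) were B6 own-chromosome. The rest of each kind served for comparison. Symmetric hotspots had a B6 share from 0.1 to 0.9 (5073 of PWD type and 3606 of B6 type), and opposite-chromosome hotspots were one-sided the other way (1474 PWD-type on the B6 chromosome and 1388 B6-type on the PWD chromosome). A further 960 PWD-type and 665 B6-type hotspots had no B6 share and could not be members.

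The authors' own allele assignment was the same as the map match for 831 of the 842 PWD own-chromosome hotspots in the authors' deposited table. It named B6 for 8 and left 3 undetermined. The 8 had a median distance of 825.5 bp to the PWD/PWD centre, against 45.0 bp for the 831. Of the 540 B6 own-chromosome hotspots, the authors' deposited table gave 534 to B6, 2 to PWD and left 4 undetermined.

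The values the rule used are given as a description. The B6 share of the PWD own-chromosome hotspots had a median of 0.031, and that of the B6 own-chromosome hotspots 0.973. The members nearest to the lower limit were a site 3777 bp from 4930543K20Rik and one 205828 bp from Gm6261, both at 0.099, while sites in Malrd1 and near C5ar2 at 0.1 lay just outside. At the upper limit a site in a coding exon of 9930021J03Rik and one in Dgkb, both at 0.901, were members, and sites in Csmd1 and Grin2b at 0.9 were not. Infertile heat ran from 4.0 through a median of 22.7 to 378.8 in the PWD and from 4.0 through 25.75 to 356.4 in the B6 own-chromosome hotspots. These levels were close to those of symmetric hotspots (medians 24.4 and 24.9) and far below those of opposite-chromosome hotspots (115.2 and 121.7).

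The first question across the other hybrids was whether the same sites were broken again, and on the same chromosome. In the reciprocal F1, with the same 2 alleles and the parents exchanged, 648 of 842 PWD own-chromosome hotspots were found (77.0%, 74.0 to 79.7), against 79.9% of all unmarked infertile hotspots. Of the 602 with a B6 share there, 541 (89.9%, 87.2 to 92.0) again lay below 0.1, where 27.0% of all hotspots do, and none lay above 0.9. Of the B6 own-chromosome hotspots 459 of 540 (85.0%, 81.7 to 87.8) were found, and 407 of 436 with a share (93.3%, 90.6 to 95.3) again lay above 0.9, against 28.1% of all. Opposite-chromosome hotspots kept their side at least as often, PWD-type ones above 0.9 in 94.6% and B6-type ones below 0.1 in 94.7%. The PWD chromosome is maternal in the infertile and paternal in the reciprocal F1. The members that stayed on their side thus kept the strain of the broken chromosome and not its parent of origin.

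In the reciprocal map the median B6 share was 0.019 for the PWD and 0.991 for the B6 own-chromosome hotspots. At Ktn1 the infertile map gave a share of 0.004 and the reciprocal map 0.001, with heat 343.3 and 400.4. At Gm49007 it was 0.999 and 0.997, with heat 286.2 and 376.7. Changes of side were few, and the sites named for them were chosen after their values were seen. Both B6 own-chromosome hotspots that went below 0.1 lie on chromosome 7, near Gm10297 (chr7:60744687, 0.962 to 0.029) and near B230209E15Rik (chr7:61462513, 0.918 to 0.048). At these sites most breaks were on the paternal chromosome in both crosses. Among PWD own-chromosome hotspots the highest reciprocal share was 0.324, 4923 bp from Ppp2r3a, a phosphatase subunit gene.

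The next 2 hybrids carry the PWD allele opposite the Hum allele, so the B6 allele is absent although B6 chromosomes are present. The rescue F1 map held 294 of the 842 PWD own-chromosome hotspots (34.9%, 31.8 to 38.2), with 23.6% for all unmarked infertile hotspots. The Hum/PWD F1 map held 558 (66.3%, 63.0 to 69.4), with 36.0% for all. Symmetric PWD-type hotspots were found in 34.9% and 59.4% of cases and opposite-chromosome ones in 73.9% and 88.1%. The lowest heat among the members found was 14.2 in the rescue map, 5.9 in the Hum/PWD map and 6.4 in the reciprocal map, so the maps did not reach equally weak sites. Most sites found were again broken on the PWD chromosome. Of those with a share, 195 of 275 (70.9%, 65.3 to 76.0) lay below 0.1 with rescue males and 425 of 544 (78.1%, 74.5 to 81.4) with Hum/PWD males, where 5.87% and 8.31% of all hotspots did. The medians were 0.061 and 0.048, and none lay above 0.9 in either map. Opposite-chromosome PWD-type hotspots kept their own side, above 0.9, in 82.7% and 84.2% of cases in these maps. They were hotter in the infertile map, at a median of 115.25 against 22.7, and the classes were not matched for heat.

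All 3 other PWD-allele hybrids shared 282 of the 842 sites (33.5%), and 142 were found in none of them. Of 262 with a share in all 3 maps, 173 (66.0%) were below 0.1 in each. The intron of Ascc3, a helicase gene, was such a site (chr10:50798835), with heat 278.5, 340.6, 437.7 and 414.2 in the infertile, reciprocal, rescue and Hum/PWD maps and shares of 0.003, 0, 0 and 0.012. So was a coding exon of Ddias, an apoptosis suppressor gene (chr7:92858324), with heat 327.4, 365.2, 398.9 and 367.0. A site 4115 bp from Nsf, the vesicle-fusion ATPase gene (chr11:103958171), behaved otherwise, with a share of 0.038 in the infertile F1, 0.7 in the rescue F1 and 0.669 in the Hum/PWD F1 (named after its values were seen). Near Magef1 heat was 367.9 and 421.1 in the 2 PWD/B6 hybrids and 324.8 in the B6 by CAST hybrid, while Hum/PWD males had 12 and rescue males no hotspot there.

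Few B6 own-chromosome hotspots were found in hybrids that lack the B6 allele. The rescue map held 11 of 540 (2.04%, 1.14 to 3.61) and the Hum/PWD map 19 (3.52%, 2.26 to 5.43). These were larger shares than those of the other B6-type classes. Symmetric ones were found in 0.666% (0.448 to 0.988) and 0.915% (0.652 to 1.28), and opposite-chromosome ones in 0.288% and 0.504%. The Rai14 site was the hottest of the members found, with heat 374.6 and 452.4 and B6 shares of 0.986 and 0.994 in males without a B6 allele. An intron of Gm4869 (chr5:140457568) had a share of 1 and heat 34.6 in the infertile map but shares of 0.012 and 0.014 with heat 248.3 and 213.2 in the rescue and Hum/PWD maps. In B6/Hum males, which keep 1 B6 allele on a wholly B6 genome, 440 of the 540 were found (81.5%, 78.0 to 84.5), against 69.7% of B6-type symmetric, 24.0% of opposite-chromosome and 19.6% of all unmarked infertile hotspots. The B6/Hum map held 3 of the 842 PWD own-chromosome hotspots, and the Hum/Hum map held 8 of them and 13 of the 540, with 1.36% for all.

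**Figure D1:**
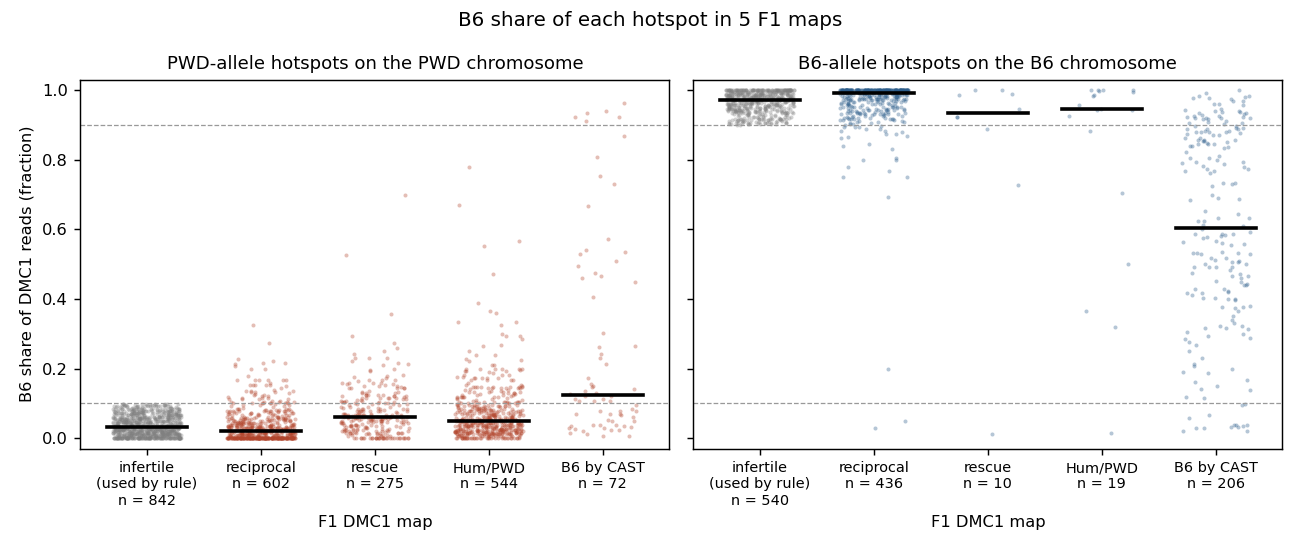
Each point is 1 own-chromosome hotspot, placed by its B6 share of DMC1 reads (vertical axis, fraction) in 5 F1 DMC1 maps (horizontal axis, spread sideways for visibility), and black lines are medians. The grey infertile values were used to choose the members. Dashed lines at 0.1 and 0.9 are the limits of the rule. The medians in the reciprocal map were 0.019 (PWD) and 0.991 (B6), and the B6 by CAST values of the B6 own-chromosome hotspots spread over the whole range around 0.6045.

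In the B6 by CAST hybrid the B6 allele met another homologue, and B6 shares ran over nearly the whole range. There 220 of 540 B6 own-chromosome hotspots were found (40.7%, 36.7 to 44.9), with 27.8% for all unmarked infertile hotspots. The same map held 35.8% of symmetric and 71.4% of opposite-chromosome B6-type hotspots. The B6 share of the members found had a median of 0.6045. Of 206 with a share, 38 (18.4%) lay above 0.9, 14 below 0.1 and 154 between, where 10.4% of all hotspots lay above 0.9. The symmetric B6-type hotspots had a median of 0.438 and the opposite-chromosome ones 0.05 in the same library. Single sites differed widely. The share stayed at 0.982 near Aggf1 and 0.991 near Mfap3, was 0.398 in Armc9 and 0.422 near Klf5, a transcription factor gene, and was 0.019 in Nectin3, an adhesion gene, where heat was 43.0 in the infertile and 330.4 in the CAST map. Of the PWD own-chromosome hotspots 73 of 842 (8.67%) had a CAST-map centre within 1000 bp, with a median share of 0.1245.

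**Figure D2:**
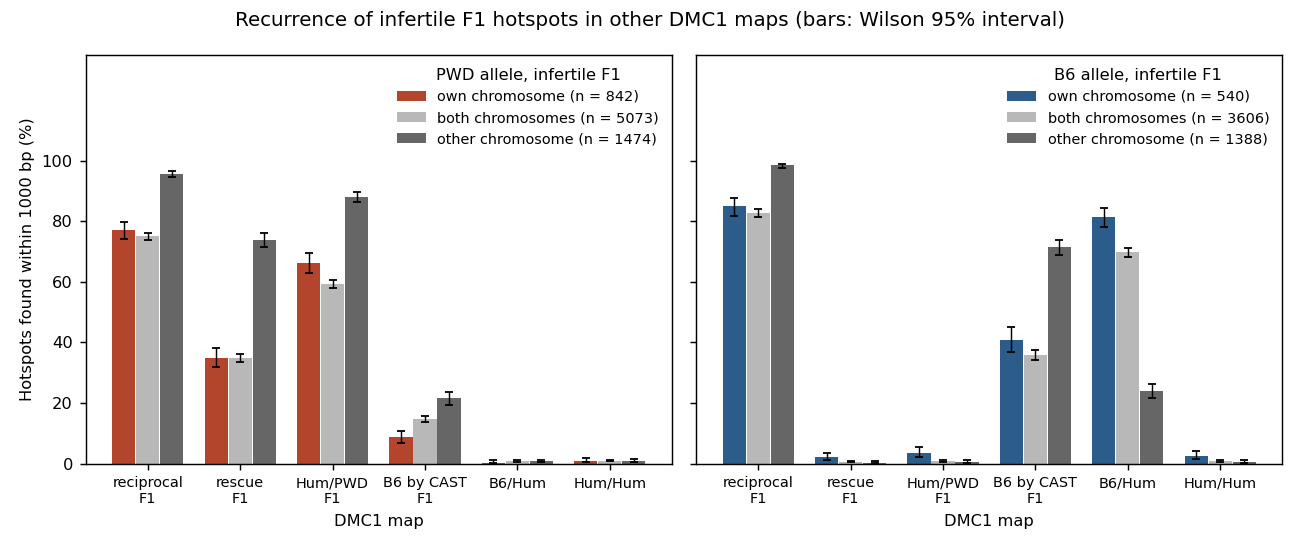
Bars give the percentage of infertile F1 hotspots of each class (vertical axis) with a centre within 1000 bp in 6 other DMC1 maps (horizontal axis), for PWD-type hotspots on the left and B6-type on the right, with Wilson 95% intervals. Own-chromosome PWD hotspots were found in 77.0% of cases (reciprocal map) and 34.9% (rescue map), and own-chromosome B6 hotspots in 81.5% in the B6/Hum map and 2.04% in the rescue map.

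Being found again went with heat. When the PWD own-chromosome hotspots were ranked by infertile heat into 4 equal groups, the reciprocal map held 33.2, 77.6, 97.6 and 99.5% of them from the weakest to the hottest. The corresponding shares in the rescue map were 2.84, 14.8, 38.6 and 83.4%. For the B6 own-chromosome hotspots the reciprocal map held 50.4, 89.6, 100 and 100%, and the B6 by CAST map 9.63, 19.3, 45.9 and 88.1%. Most members missing from the reciprocal map were thus among the weaker ones of the infertile map. Among those found, the share of PWD own-chromosome hotspots below 0.1 in the reciprocal map was 87.5, 83.6, 88.4 and 96.2% over the same groups. In the rescue map it was 66.7, 48.0, 59.5 and 79.4%, with only 6 sites in the weakest group. In the Hum/PWD map it was 63.8, 63.1, 76.5 and 92.3%. Opposite-chromosome hotspots were hotter than members, and none of the comparisons of classes above was matched for heat.

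The second question was how hot the sites were in the strain of their allele. The PWD own-chromosome hotspots had a median PWD/PWD heat of 119.65, close to 108.7 for symmetric and above 49.9 for opposite-chromosome hotspots of PWD type. The B6 own-chromosome hotspots had a median B6/B6 heat of 171.95, against 155.35 and 60.45. In the homozygote, then, own-chromosome sites stood at or slightly above the symmetric level, and opposite-chromosome sites were the weak ones. In the infertile F1 the opposite-chromosome sites were the hot ones. The median per-site ratio of infertile to homozygous heat was 0.207 for PWD own-chromosome, 0.263 for symmetric and 1.8 for opposite-chromosome hotspots, and 0.160, 0.184 and 1.66 for the B6 type. Infertile heat was below homozygous heat at 813 of 842 (96.6%) and 523 of 540 (96.9%) members, and likewise at 4874 of 5073 (96.1%) and 3540 of 3606 (98.2%) symmetric hotspots. Heat is relative within each map and its definition is not given in the sources used here, so only the contrast between classes, not the ratio itself, can be read. The infertile map and the homozygous maps also both enter the rule, and no test was made.

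**Figure D3:**
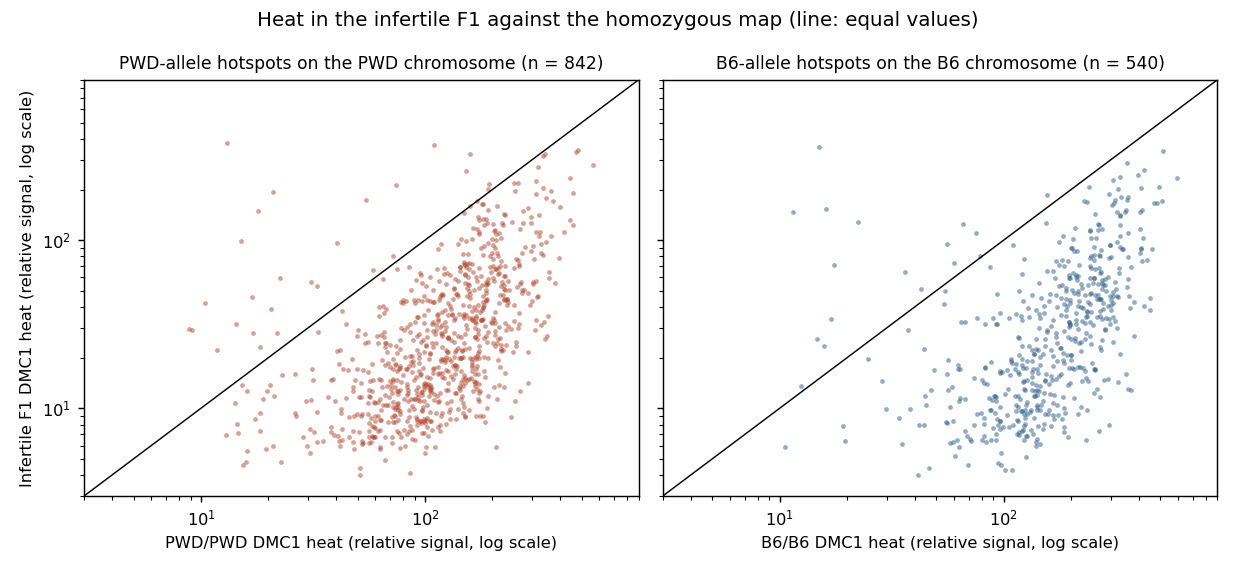
Each point is 1 own-chromosome hotspot, with DMC1 heat in the homozygous map of its allele (horizontal axis) against heat in the infertile F1 (vertical axis), both relative and on log scales. The line marks equal values. Of the PWD sites 813 of 842 and of the B6 sites 523 of 540 lie below it, as did 96.1% and 98.2% of the symmetric hotspots, which are not drawn. Hyal6 and Rai14 are the isolated points at the upper left.

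In the reciprocal map, which the rule did not use, the median heat was 25.55 for PWD own-chromosome, 28.1 for symmetric and 116.2 for opposite-chromosome hotspots. For the B6 type it was 32.0, 29.6 and 135.3. The ratio to symmetric hotspots was 0.909 and 1.08, and that to opposite-chromosome hotspots 0.220 and 0.237, in each case over the hotspots found there. Genes of meiosis and spermatogenesis held 2 members. Of 49 genes listed for recombination and synapsis, 40 were found under the listed symbol in the annotation of the autosomes, the only chromosomes searched. With 2000 bp added on each side they held 34 infertile hotspots, of which 1 was a member, where 5.87% of all infertile hotspots are members. It lay in an intron of Msh4, the MutS homologue that stabilises crossover intermediates (chr3:153858329), with an infertile heat of 9.0, a reciprocal heat of 11.6 and a PWD/PWD heat of 180.9. The 34 spermatogenesis genes held 36 infertile hotspots, of which 1 was a member, in Tdrd1, a Tudor-domain gene of the piRNA pathway (chr19:56858358), with heat 32.7, 32.1, 47.9 and 35.5 in the infertile, reciprocal, rescue and Hum/PWD maps and 338.8 in PWD/PWD. The 20 somatic testis genes found on the autosomes held 18 infertile hotspots and no member, and with so few hotspots none of the 3 lists was set against the 5.87% by a test. A hotspot in a gene says nothing of the gene's expression.

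The third question was whether H3K4me3, measured in other libraries than DMC1, lay on the same chromosome. In the infertile cross 533 PWD own-chromosome bins had at least 10 informative reads, and their B6 share of H3K4me3 had a median of 0.00963. It was below 0.1 in 413 (77.5%, 73.7 to 80.8) and above 0.9 in none, where 23.7% of all unmarked bins were below 0.1. Of 339 B6 own-chromosome bins the median was 0.988, and 252 (74.3%, 69.4 to 78.7) lay above 0.9, against 20.9% of all. The mark was thus one-sided at most of the bins with enough reads and on the chromosome with the breaks. The rest of the 842 and 540 members had too few informative reads and were not scored. The reciprocal table gave 179 of 258 (69.4%) below 0.1 and 125 of 185 (67.6%) above 0.9, and in the rescue table it was below 0.1 at 121 of 172 (70.3%). One-sided marking was not particular to the members. Of opposite-chromosome bins in the infertile cross, 74.1% of B6-type ones lay below 0.1 and 63.9% of PWD-type ones above 0.9.

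**Figure D4:**
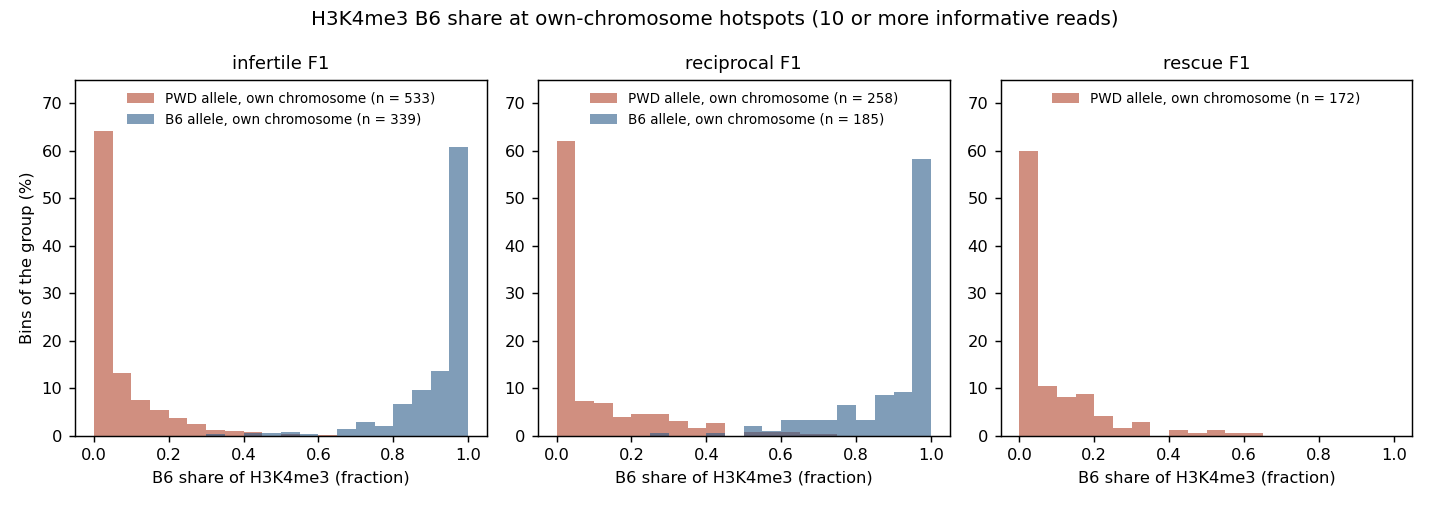
Histograms give the percentage of own-chromosome bins (vertical axis) by B6 share of H3K4me3 (horizontal axis, fraction) in the infertile, reciprocal and rescue F1 tables, for bins with at least 10 informative reads. PWD own-chromosome bins pile up near 0 (infertile median 0.00963) and B6 own-chromosome bins near 1 (infertile median 0.988). The rescue panel shows the PWD kind alone because 8 B6 bins had enough reads.

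The remaining bins with enough reads lay between 0.1 and 0.9, and the least one-sided of them are named here. The highest H3K4me3 B6 share among PWD own-chromosome bins was 0.643 in an untranslated exon of Draxin (DMC1 share 0.053, heat 4.1, 17.5 informative reads after the authors' background subtraction). Among B6 own-chromosome bins the lowest was 0.309, 3659 bp from Prex1 (DMC1 share 0.929, 15.7 reads). At Gm6170 the H3K4me3 share was 0.418 for the infertile and 0.531 for the reciprocal F1, and the DMC1 share 0.923 and 0.2. These bins were picked as extremes after their values were seen and rest on few reads.

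The amount of H3K4me3 was low at the members. The authors' enrichment over local background had a median of 0.493 at PWD own-chromosome, 0.717 at symmetric and 1.72 at opposite-chromosome bins of the infertile table. For the B6 type it was 0.524, 0.798 and 2.29. The deposited p-value was below 0.05 at 618 of 842 (73.4%) and 396 of 540 (73.3%) members, against 81.1% of all unmarked bins. In the B6/B6 table the B6 order was the opposite, with medians of 1.49 at own-chromosome, 1.29 at symmetric and 0.436 at opposite-chromosome bins. The strongest marks at members were an enrichment of 8.57 near Gm13016 (chr4:140374514) and 6.46 in Nudc, a nuclear migration gene (chr4:133537168), for the PWD kind. For the B6 kind they were 7.68 near Rps25-ps1 (chr6:145270431) and 6.18 near Gm37093.

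DMC1 signal relative to the mark was compared within each cross, as summed heat over summed enrichment. In the infertile cross it was 49.9 at PWD own-chromosome, 38.0 at symmetric and 65.1 at opposite-chromosome hotspots, and 45.5, 33.5 and 56.7 for the B6 type. In the reciprocal cross the values were 96.8, 75.5 and 162.2, and 107.3, 69.99 and 137.2. In both crosses own-chromosome hotspots stood between the other classes, with more DMC1 signal per mark than symmetric ones. Between crosses these ratios cannot be compared, since each table has its own scale. In the reciprocal table the enrichment was 0 at 223 of 648 PWD and 146 of 457 B6 own-chromosome bins. It was 0 at 964 of 3803 and 693 of 2986 symmetric ones, so many of the summed values there were at the floor. The rescue order was different for the PWD type, with 108.9, 62.1 and 104.0.

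H3K4me3 at the same sites was then compared between crosses, in bins whose centres lay at most 100 bp apart and which were unmarked in both tables. Summed over 393 PWD own-chromosome bins, the ratio of ChIP to input fragments was 1.31 and 1.43 in the 2 infertile replicates and 1.02 and 0.977 in the 2 reciprocal ones. Over 299 B6 own-chromosome bins it was 1.53 and 1.59 against 1.10 and 1.05. The crosses did not overlap in either kind, but all 10577 unmarked bins differed in the same way (2.15 and 2.26 against 1.38 and 1.32). The exact two-sided permutation p was 0.333 for each, the smallest that 2 replicates against 2 allow, so the test could not pass 0.05.

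A test per bin that scales the ChIP libraries to each other (TMM) and leaves out the input gave more lower than higher calls at the members. Over the bins tested with ordinary input, the summed input of the infertile cross was 0.814 (PWD) and 0.790 (B6) of that of the reciprocal cross. edgeR's quasi-likelihood test called 1721 of 10458 bins (16.5%) at a Benjamini-Hochberg adjusted p of 0.05 or less between the infertile and the reciprocal F1. Among PWD own-chromosome bins 10 of 379 tested were higher and 46 lower in the infertile cross, and among B6 own-chromosome bins 12 of 292 were higher and 35 lower. Over all bins 8.45% were higher and 8.0% lower. The median log2 ratio of infertile to reciprocal was -0.29 in each kind and -0.01 over all tested bins. The ratio moved with the level of the mark across classes, at -0.03 in PWD-type symmetric and 0.15 in opposite-chromosome bins, and the libraries also differed in ChIP over input as given above. The part of that in the calls was not tested.

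The bins called higher had much of the mark and those called lower had little. The median ChIP count of the 10 higher PWD bins was 113.5 in the infertile and 64.25 in the reciprocal table, and that of the 45 lower bins with ordinary input 13.5 and 22.5. An intron of Bckdhb, a gene of branched-chain amino acid breakdown (chr9:84072984), had 102 and 123 fragments in the infertile and 57 and 54 in the reciprocal replicates. Its log2 ratio was 0.73 (edgeR adjusted p = 0.00104). A site 2154 bp from Mfap3 had 164 and 194 against 89 and 87 fragments, a log2 ratio of 0.73 (edgeR adjusted p = 5.2e-05). In both the replicates of the crosses did not overlap. In an intron of Rgs6, a G-protein regulator gene, the counts were 6 and 27 against 53 and 26, so the replicates of the crosses overlapped although edgeR called it (log2 ratio -1.54, adjusted p = 3.9e-05). That call was lost without infertile replicate 1 (log2 ratio -0.88) and without reciprocal replicate 1 (-0.97). These 3 were named after their values were seen.

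The number of calls depended on the tool and on each library. DESeq2 called 34 bins in all, 1 PWD and 1 B6 own-chromosome, with 923 at an unadjusted p below 0.05 against 3356 by edgeR. Its independent filtering gave an adjusted p to only 8 of the 379 PWD and 11 of the 292 B6 own-chromosome bins. Without that filtering it called 37, 1 and 0, and Bckdhb, Mfap3 and Rgs6 were not among them. Without infertile replicate 1 the edgeR calls were 728 in all, 23 PWD and 21 B6, without infertile replicate 2 they were 1299, 47 PWD and 30 B6, without reciprocal replicate 1 479, 18 and 12, and without reciprocal replicate 2 582, 16 and 17.

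Against the rescue F1 2889 bins were tested and 165 called by edgeR (5.71%, 1.45% higher and 4.26% lower in the infertile cross). Of 174 PWD own-chromosome bins 1 was higher and 6 lower, and the median log2 ratio was -0.03. The higher bin lay in an intron of Ssbp2, a single-stranded DNA-binding protein gene (chr13:91601584), with 88 and 90 fragments against 31 and 27 (log2 ratio 0.78, edgeR adjusted p = 0.00853). That call was lost with DESeq2, without either infertile replicate and without rescue replicate 2. DESeq2 called 66 bins in all and 1 of the PWD own-chromosome kind, a lower one. Without infertile replicate 1 or 2 the edgeR calls among the latter were 1 and 2 (65 and 83 in all), and without rescue replicate 2 they were 3. Only 6 B6 own-chromosome bins could be tested, and none was called by edgeR or DESeq2 or had an unadjusted p below 0.05.

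The last question was what the members share in sequence and place. The PWD motif had a match within 150 bp of the centre in 146 of 842 PWD own-chromosome windows (17.3%, 14.9 to 20.0) of the B6 reference, against 18.9% over all unmarked hotspots. Symmetric PWD-type hotspots had one in 29.3% (28.0 to 30.5) and those on the B6 chromosome in 39.9% (37.4 to 42.4). Windows of the same length 500 bp away gave 5.23% at the members. In the B6 sequence, then, the PWD motif was less frequent at sites broken on the PWD chromosome than at those broken on the B6 chromosome, and the intervals do not overlap. The PWD sequence of these sites was not analysed here.

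The B6 motif behaved otherwise in the same reference. It was matched in 319 of 540 B6 own-chromosome windows (59.1%, 54.9 to 63.1), in 60.3% of symmetric and in 63.9% of opposite-chromosome B6-type hotspots, with 26.9% over all unmarked hotspots and 6.48% at 500 bp from the members. The other allele's motif was at 7.01% in PWD own-chromosome and 5.0% in B6 own-chromosome windows. Matches lay a median of 71.5 bp (PWD) and 76.5 bp (B6) from the hotspot centre, so they were spread over the window. Matches were more frequent at hotter members, at 12.3, 14.3, 21.4 and 21.3% over the 4 heat groups of the PWD kind, weakest first, and at 53.3, 51.9, 62.2 and 68.9% of the B6 kind. Opposite-chromosome hotspots were hotter than members, and this comparison was not matched for heat. The motif was learned here on B6 sequence for both alleles, and only 23.0% of the PWD training windows held a match, against 60.4% of the B6 ones.

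**Figure D5:**
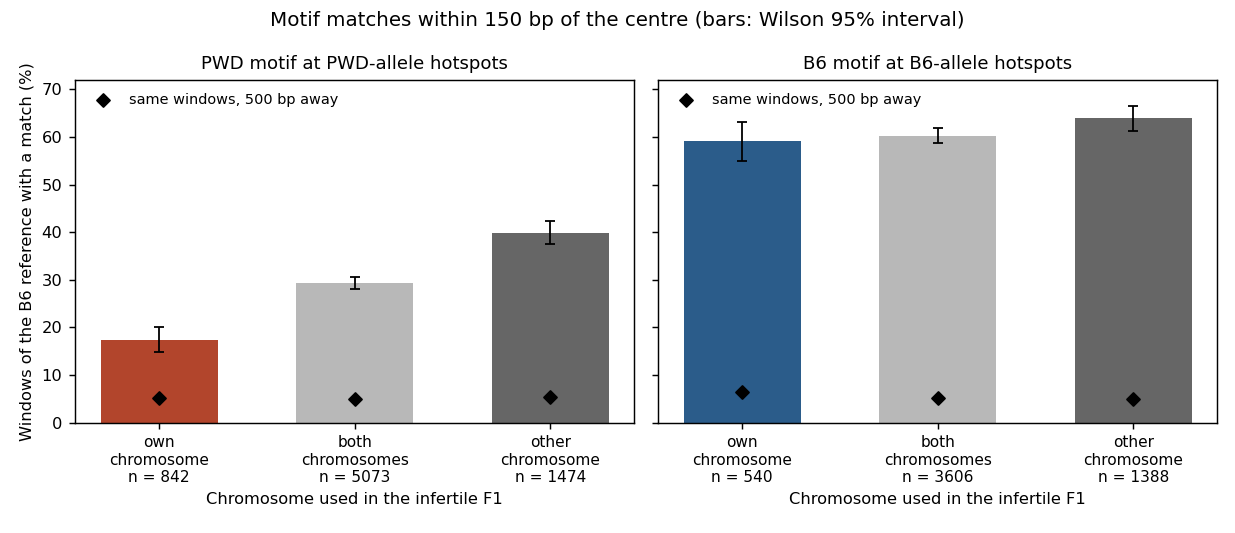
Bars give the percentage of windows of the B6 reference, 150 bp to each side of the centre (vertical axis), with a match to the PWD motif at PWD-type hotspots (left) and to the B6 motif at B6-type hotspots (right), by the chromosome used in the infertile F1 (horizontal axis), with Wilson 95% intervals. Diamonds are windows 500 bp away. The PWD bars rise from 17.3% to 39.9% and the B6 bars from 59.1% to 63.9%.

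By position most members lay outside exons, as did unmarked hotspots as a whole. Centres lay in introns in 51.8% of the PWD and 47.8% of the B6 own-chromosome hotspots, against 52.2% of all unmarked infertile hotspots. They lay between genes in 42.5% and 46.5%, against 41.8% of all. Coding exons held 18 and 6 of the members (2.14% and 1.11%), against 2.43% of all. Within 1000 bp of a protein-coding start lay 4 of 842 (0.475%, 0.185 to 1.22) and 1 of 540 (0.185%, 0.0327 to 1.04), against 1.28% and 1.16% of symmetric hotspots. The GC content of these windows had a median of 42.9% in both kinds, as in the symmetric hotspots of B6 type (42.9%) and beside 43.2% in those of PWD type.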

How the data were processed

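All values start from deposited tables. The submitters' processing notes name BWA as aligner and, for H3K4me3, also SAMtools and bedtools, without versions. The hotspot caller is not given in the sources used here. DMC1 heat is a relative signal deposited by the authors, of unstated definition, and the DMC1 B6 share is a fraction that the authors deposited without its number of reads. Per the file headers, H3K4me3 values are counts of ChIP or input fragments per 1 kb bin (the unit of the count tests), an enrichment ratio to local background, a p-value of a likelihood ratio test, the B6 fraction of the mark, and a score of informative reads after background subtraction.

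The members and the lists were chosen with earlier results of these data known. Centres were matched within 1000 bp in mm10, and marked bins were left out. Bins of 2 tables with centres at most 100 bp apart were tested with edgeR 4.0.16 (glmQLFTest, TMM, low counts filtered) in R 4.3.3, with DESeq2 1.42.0 as an alternative. Python 3.11.15, pandas 2.3.3, SciPy 1.17.1 and pysam 0.24.0 were used, with GENCODE M21 genes. Motif matrices were fitted by expectation maximisation with a background of order 3. A first fit with a single-base background drifted to simple sequence for PWD, and the order, the limits on the fit and the choice of round were changed after that was seen. Code was tested on simulated data. Sites named are the 8 hottest of each kind, the 3 hottest per other hybrid map, the 3 with the highest enrichment, the 2 nearest each side of a limit and those in list genes, without bins of input above 10 times the median. Others are said to be named after their values. Some sites that meet the rule are not reported here. Replicate numbers did not pair the F1 samples.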

Additional observations from a re-analysis of the deposited data

How the results depend on the processing

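Main limits are 1 library per DMC1 map, shares without read numbers, and 2 H3K4me3 replicates per cross. With limits of 0.05 and 0.95, the members found made up for the PWD kind 84.0% (reciprocal), 44.0% (rescue) and 75.8% (Hum/PWD), and for the B6 kind 88.8% (reciprocal), 45.2% (B6 by CAST) and 85.6% (B6/Hum). With only as many of the hottest hotspots per hybrid map as the shortest map holds they were 62.6% and 46.2% (PWD kind, reciprocal and Hum/PWD) and 73.1% and 35.4% (B6 kind, reciprocal and CAST). A match distance of 2000 bp gave 1.90% (PWD kind, B6/Hum) and 5.56% (B6 kind, Hum/PWD). One-sided as below 0.2 or above 0.8, the reciprocal shares were 98.3% and 97.7%. The PWD/PWD heat of the PWD kind over symmetric hotspots was 1.10, and 1.05 in the hotter part of each class and also with symmetric taken as 0.3 to 0.7. With homozygous centres within 200 bp, an alternative chosen after the data were seen, it was 1.19. Motif matches were fewer, by construction, in windows of 100 bp either side (13.8% PWD, 39.1% B6) and at a limit that 1% of flanks pass (6.29% and 38.0%). With a single-base background, chosen after the data were seen, the PWD kind had 11.9%.

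Between the infertile and reciprocal F1 the edgeR calls were 1721, with 56 PWD and 47 B6 members. DESeq2 gave 34, 1 and 1, without independent filtering (chosen after the data were seen) 37, 1 and 0, and centres up to 250 bp apart, which brings in more bins, 2655 with 92 PWD members. Leaving out 1 replicate gave 479 to 1299 calls, 16 to 47 PWD and 12 to 30 B6 members. Against the rescue F1, with 165 calls and 7 PWD members, DESeq2 gave 66 and 1 with and without that filtering, centres up to 250 bp apart 12 PWD members, and leaving out 1 replicate 65 to 121 calls and 1 to 6 PWD members. For DESeq2 and the left-out replicates the cause was not tested. With the replicate block the calls were 1659 and 150. Same-numbered replicates had correlated deviations of 8.0e-05 and -0.03, so the numbers gave no pairing. Of the other alternatives to these results 137 stayed within their interval or within 1.5 times. For the 16 single bins, 122 bin-by-alternative results kept the call and 43 lost it, and none changed direction. DESeq2 gave no adjusted p for 8 of the 16, which are not counted there, and without independent filtering it called none of the 16.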

Other observations

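The members were spread over all 19 autosomes. The PWD own-chromosome share of PWD-type hotspots with a B6 share ran from 8.09% (45 of 556, Wilson 95% interval 6.10 to 10.7) on chromosome 2 to 14.6% (64 of 437, 11.6 to 18.3) on chromosome 7. The B6 own-chromosome share of B6-type hotspots ran from 6.84% (13 of 190, 4.04 to 11.4) on chromosome 9 to 13.5% (21 of 156, 8.98 to 19.7) on chromosome 19. These are the ends of 19 values in each kind and were not tested. Chromosome 17, which carries Prdm9, had 33 of 259 (12.7%) and 24 of 231 (10.4%).

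Bins marked by the authors as likely to hold PRDM9-independent H3K4me3 were left out by the rule, and 40 PWD-type and 46 B6-type hotspots would otherwise have been own-chromosome. Among hotspots that matched both homozygous maps, 31 unmarked ones lay below a B6 share of 0.1 and 26 above 0.9.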
